A study of Mus musculus with 28 samples.

Results

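The transcripts of 10 cytosolic enzymes of glucose breakdown were followed in mouse fat: Gpi1, Pfkl, Pfkm, Aldoa, Tpi1, Pgk1, Pgam1, Eno1, Pkm and Ldha. They were taken by name as a list, out of 55891 genes with an identifier in the largest tables. The list was chosen with earlier results of these data known. All 10 were measured and passed the filter on low values in each of the 5 fat data sets.

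The study removed Fgf13, a growth factor homologue that acts inside the cell, from mouse fat and profiled fat by bulk RNA-seq, with 13 knockout and 15 control libraries. The Fgf13ΔAdipo mice carried an inducible adipose knockout in the ieWAT (epididymal white fat) and isWAT (subcutaneous white fat) sets and a constitutive one in the sWAT (subcutaneous white fat) and BAT (brown fat) sets. Knockout and control mice of these 4 sets were obese and had eaten a high fat diet for 20 weeks. For eWAT, another epididymal set, neither the kind of knockout nor the diet is stated. The controls are labelled wild type. There were 3 knockout and 3 control libraries in ieWAT, sWAT and eWAT, and 2 knockout and 3 control libraries in isWAT and BAT. Cre driver, sex and age of the mice are not stated in the sources used. Nothing in the labels ties each library to its own animal, so the p-values measure only the spread between these samples, which may be technical.

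Glycolysis turns glucose into pyruvate in the cytosol. In fat cells it feeds lactate release, mitochondrial oxidation, new fatty acids and, through the triose phosphates, the glycerol backbone of stored fat. Most steps have isozymes, which differ between muscle, liver, brain, germ cells and the ubiquitous form.

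Fgf13 itself was lower in every knockout library than in every control library in the 4 sets with a stated knockout, at 22.6 to 33.4 CPM against 39.7 to 51.4 CPM in ieWAT, for example. In eWAT the libraries labelled knockout were not lower, with 23.1, 17.6 and 27.02 FPKM in the libraries labelled knockout, against 20.4, 27.6 and 12.9 FPKM in the control libraries, so directions there follow the labels only. Values are reads scaled to the library total (CPM) in the first 4 sets, with 13490948 to 48812592 reads per library, and fragments scaled to transcript length and depth (FPKM) in eWAT, where the depth is unknown. A CPM of 0 allows up to 3 reads, or 0.0615 to 0.222 CPM by library, for counting error only. A few libraries stood apart: knockout libraries 2 and 3 of sWAT and knockout library 2 of BAT carried skeletal muscle transcripts, and control library 3 of ieWAT carried germ cell transcripts. The fat markers were present in each set, and BAT was high in brown fat genes, with list sums of 7319 and 9346 CPM in the knockout and 7944, 9813 and 7113 CPM in the control libraries. Each set was tested alone with limma on log2(value + 1), and adjusted p-values are Benjamini-Hochberg values over all genes tested in that set, with a threshold of 0.05.

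Per unit of transcript length, aldolase was the most abundant of the 10 transcripts and the muscle subunit of phosphofructokinase the least abundant in the control libraries of each set. Aldoa averaged 1057 ± 89.6 CPM per kilobase in ieWAT, 1255 ± 53.3 in isWAT, 1133 ± 78.9 in sWAT and 1871 ± 384 in BAT, and 1055 ± 219.8 FPKM in eWAT (SD, n = 3 each). Pfkm averaged 9.13 ± 1.67 CPM per kilobase in ieWAT, 11.7 ± 0.797 in isWAT, 8.18 ± 0.188 in sWAT and 23.7 ± 6.16 in BAT, and 6.39 ± 0.5004 FPKM in eWAT (SD, n = 3 each). In the white fat sets Eno1, Ldha, Tpi1 and Pkm lay in the upper range between them and Pgam1, Gpi1, Pgk1 and Pfkl in the lower range, while in BAT the mean of Tpi1 lay below those of Pgam1 and Pgk1. The enzymes were also the main isoforms at most of their steps: Aldoa made up at least 95.3% of the aldolase signal per kilobase and Pkm at least 99.2% of the pyruvate kinase signal in each library, and Eno1 at least 85.6% of the enolase signal. Ldha shared its step with Ldhb, the heart type subunit, in brown fat, where it held 59.3% to 64.4% of the lactate dehydrogenase signal, against 81.2% to 96.5% in the white fat libraries. The 81.2% was in control library 3 of ieWAT, where the germ cell form Ldhc held 14.0% and Ldhb 4.85%. The next lowest white fat share was 89.3%, in knockout library 1 of sWAT. Because the tables were normalised separately, no test was made between fat types.

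**Figure D1:**
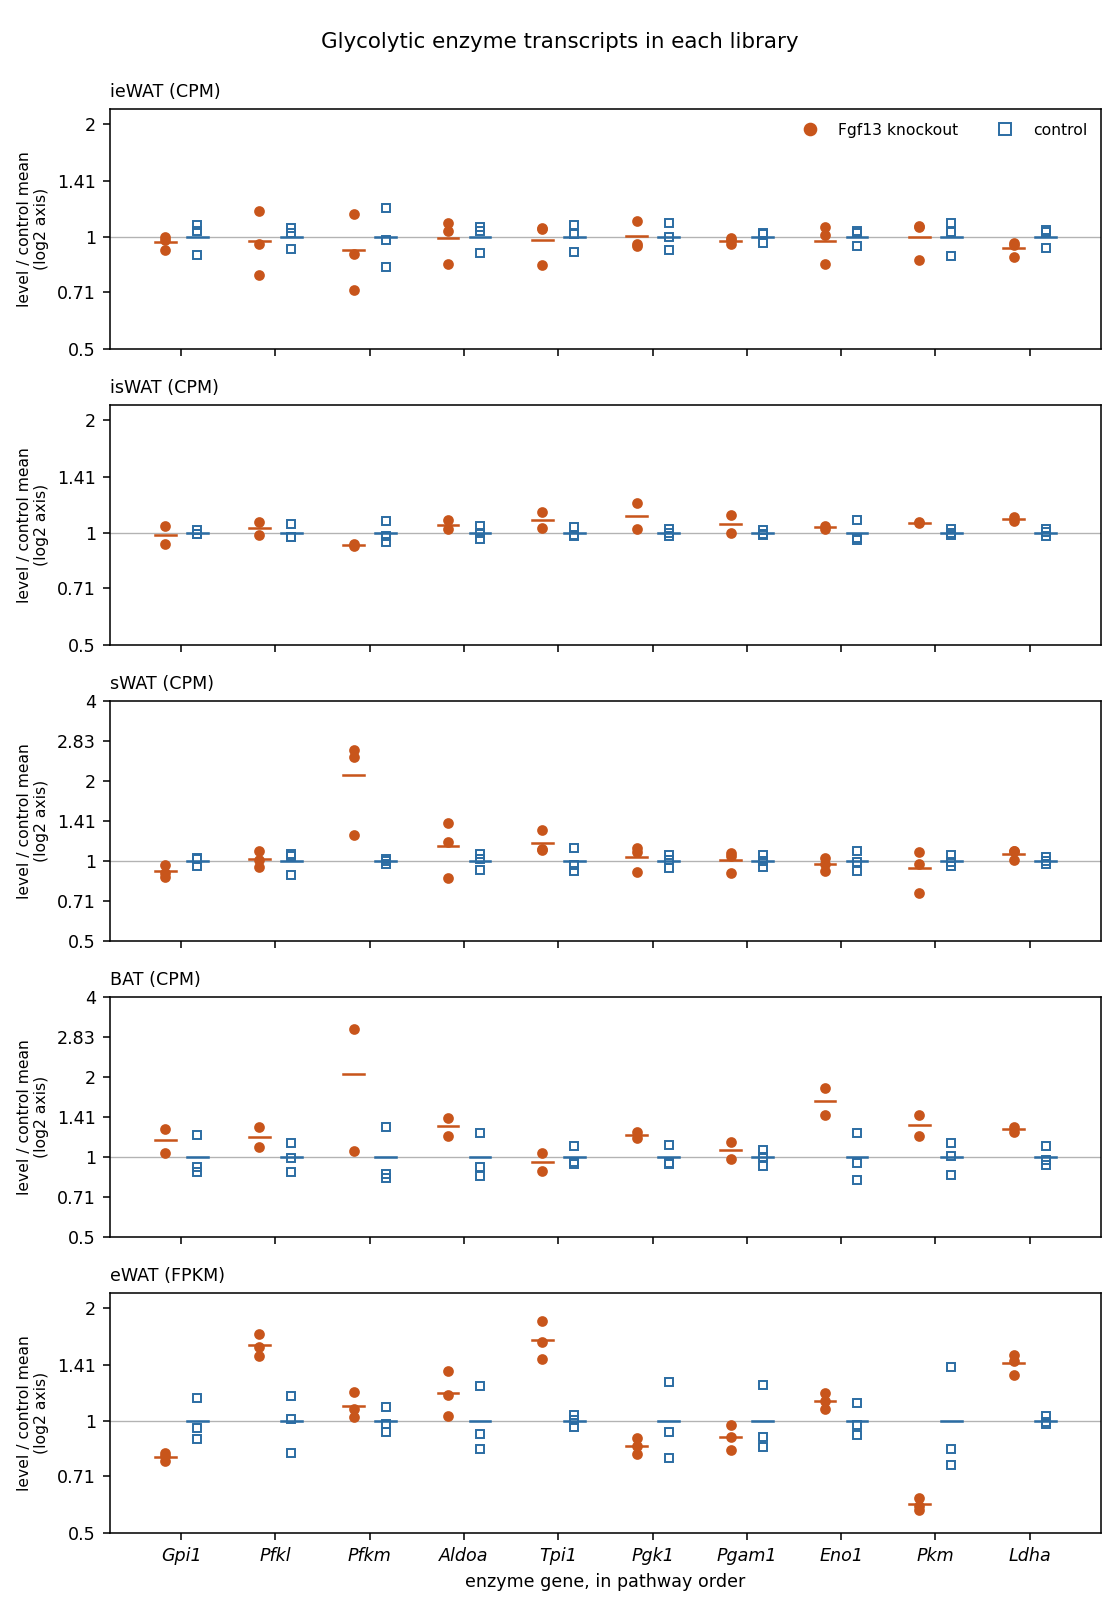
Level of each enzyme transcript in each library divided by the control mean of its data set (log2 axis), with knockout libraries as filled circles, control libraries as open squares and bars at the group means. The points of both groups overlap for all 10 enzymes in ieWAT, Pfkm and Eno1 lie highest relative to control in BAT and Pfkm in sWAT, and in eWAT Pfkl, Tpi1 and Ldha lie above and Gpi1 and Pkm below the control points.

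In eWAT the enzymes differed by step. Pfkl, Tpi1 and Ldha, 3 of the 10, rose in the libraries labelled knockout, beside 10.2% of all genes tested. Of the 10, 0 fell, beside 4.7% of all genes, and Gpi1 and Pkm lay below the control range without passing the test. Pfkl encodes the liver subunit of phosphofructokinase, the committed step. It stood at 39.9, 45.6 and 42.3 FPKM in the libraries labelled knockout, against 31.2, 27.1 and 21.96 FPKM in the control libraries. All 3 libraries labelled knockout were higher than all control libraries, with 42.6 ± 2.84 FPKM in the libraries labelled knockout and 26.7 ± 4.63 FPKM in the control libraries (SD, n = 3 each), a ratio of 1.59 (log2 change 0.66, SE 0.13, adjusted p = 0.0243 by limma). Tpi1, triose phosphate isomerase, interconverts the products of aldolase. It reached 482, 432 and 548 FPKM in the libraries labelled knockout, against 296, 306 and 284 FPKM in the control libraries. The groups did not overlap, and the means were 487 ± 58.2 FPKM in the libraries labelled knockout and 296 ± 11.1 FPKM in the control libraries (SD, n = 3 each), a ratio of 1.65 (log2 change 0.71, SE 0.11, adjusted p = 0.0142 by limma). Ldha, the lactate dehydrogenase subunit that favours making lactate from pyruvate, had 629, 578 and 652 FPKM in the libraries labelled knockout, against 425, 431 and 447 FPKM in the control libraries. Again every library labelled knockout was above every control library, by a ratio of means of 1.43 (log2 change 0.51, SE 0.09, adjusted p = 0.0192 by limma).

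Pkm, pyruvate kinase, makes pyruvate at the last energy-yielding step. It had 339, 332 and 358 FPKM in the libraries labelled knockout, against 436, 484 and 803 FPKM in the control libraries. The libraries labelled knockout lay close together and below the control libraries, of which control library 3 was the highest. The mean was 40.3% lower, which did not pass the test (log2 change -0.69, SE 0.23, 95% interval -1.23 to -0.15, adjusted p = 0.0845 by limma). Without control library 3 the change was -0.42 and its adjusted p 0.0508, and over all alternatives the adjusted p ran from 0.0508 to 0.272. Gpi1, glucose phosphate isomerase, opens the path from glucose phosphate to fructose phosphate. It showed the same order of groups, with 198, 204 and 207 FPKM in the libraries labelled knockout, against 226, 242 and 292 FPKM in the control libraries (log2 change -0.31, SE 0.11, adjusted p = 0.112). In eWAT 6 of the 10 enzymes were above 0, beside 46.4% of all genes. Non-overlap upward occurred for 3 of 10 enzymes and 21.6% of all genes, and downward for 2 of 10 enzymes and 19.6% of all genes.

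The other 5 enzymes overlapped between the groups in eWAT. Pfkm, the muscle subunit of phosphofructokinase, had 6.88, 7.63 and 6.55 FPKM in the libraries labelled knockout, against 5.96, 6.26 and 6.94 FPKM in the control libraries. Aldoa, which splits fructose bisphosphate, had 1236, 1086 and 1436 FPKM in the libraries labelled knockout, against 889, 972 and 1304 FPKM in the control libraries. Pgk1, phosphoglycerate kinase, catalyses the first energy-yielding step of the pathway. Its values were 129, 135 and 142 FPKM in the libraries labelled knockout, against 126, 147 and 200.2 FPKM in the control libraries. Pgam1, phosphoglycerate mutase, had 177, 165 and 191 FPKM in the libraries labelled knockout, against 167, 178 and 244 FPKM in the control libraries. Eno1, enolase, had 420.2, 441 and 463 FPKM in the libraries labelled knockout, against 379, 357 and 435 FPKM in the control libraries. Control library 3 was the highest of the controls for all 5. The median log2 change over the 10 enzymes was 0.15, beside -0.02 over all genes tested. Leaving out 1 library changed the calls: 0 of the 10 passed without knockout library 3 or without control library 2, 1 without knockout library 1, 2 without knockout library 2 and 3 without control library 1 or 3. Over all alternatives the adjusted p ran from 0.0193 to 0.0985 for Pfkl, from 0.0142 to 0.0706 for Tpi1 and from 0.0191 to 0.0973 for Ldha.

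Genes around the 10 enzymes differed in both directions in eWAT. Of 31 further genes of glucose uptake, hexokinases, regulators and isozymes, 23 were tested, of which 5 rose and 0 fell, beside 10.2% and 4.7% of all genes, and their median change was 0.00. Every library labelled knockout lay above control for 8 of them and below control for 5 (Hk1, Hk3, the transporters Slc2a1 and Slc16a3, and Pfkfb4), which did not pass the test. These patterns held for 21.6% and 19.6% of all genes tested. Slc2a4, the insulin-responsive glucose transporter, had 26.1, 31.03 and 33.5 FPKM in the libraries labelled knockout, against 15.2, 10.7 and 10.02 FPKM in the control libraries (log2 change 1.28, SE 0.17, adjusted p = 0.0122 by limma). Hk2, the insulin-responsive hexokinase of fat and muscle, had 14.1, 14.2 and 14.9 FPKM in the libraries labelled knockout, against 8.92, 7.41 and 6.35 FPKM in the control libraries (log2 change 0.86, SE 0.12, adjusted p = 0.0122). Both groups were fully apart for these 2 genes. Pfkfb3 and Pfkfb1 make the sugar phosphate that activates phosphofructokinase, and both rose. Pfkfb3 had 172, 183 and 189 FPKM in the libraries labelled knockout, against 93.3, 89.9 and 57.1 FPKM in the control libraries (log2 change 1.20, SE 0.19, adjusted p = 0.0142 by limma), and Pfkfb1 had 13.4, 14.1 and 14.9 FPKM in the libraries labelled knockout, against 7.65, 7.21 and 6.88 FPKM in the control libraries (log2 change 0.88, SE 0.08, adjusted p = 0.0122). Gpd1 draws triose phosphate into glycerol phosphate for fat storage. It had 452, 420.4 and 567 FPKM in the libraries labelled knockout, against 224, 242 and 182 FPKM in the control libraries (log2 change 1.15, SE 0.16, adjusted p = 0.0122 by limma). Gapdh, the enzyme between Tpi1 and Pgk1, overlapped, with 1126, 1209.9 and 1204 FPKM in the libraries labelled knockout, against 1099, 1074 and 1549 FPKM in the control libraries.

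Shares of isozymes at a step differed as well. Pfkl made up 42.2%, 47.2% and 45.1% of the phosphofructokinase signal in the libraries labelled knockout, against 40.4%, 33.5% and 27.7% in the control libraries. Pfkp, a further phosphofructokinase gene, made up 50.6%, 44.8% and 47.9% in the libraries labelled knockout, against 51.9%, 58.7% and 63.6% in the control libraries. It held the largest share in each control library and in knockout libraries 1 and 3. Hk2 made up 17.7%, 23.5% and 19.2% of the hexokinase signal in the libraries labelled knockout, against 10.1%, 7.13% and 4.09% in the control libraries. Hk3, a hexokinase of myeloid cells, made up 57.1%, 45.6% and 55.5% in the libraries labelled knockout against 64.0%, 69.4% and 74.0% in the control libraries, and its level did not pass the test (log2 change -1.02, SE 0.30, adjusted p = 0.0681 by limma). Cell type markers differed too, beside 10.2% of all genes that rose and 4.7% that fell. Of the adipocyte markers 8 of 8 rose, with list sums of 17477, 20152 and 22127 FPKM in the libraries labelled knockout against 9507, 9399 and 7422 FPKM in the control libraries. Of 9 macrophage markers 3 fell, with list sums of 5467, 3428 and 5055 FPKM in the libraries labelled knockout against 5621, 7276 and 9773 FPKM in the control libraries. Of 6 endothelial markers 4 rose (Flt1, Cdh5, Kdr and Tek), with list sums of 238, 312 and 252 FPKM in the libraries labelled knockout against 195, 199 and 162 FPKM in the control libraries. Lymphocyte markers summed to 15.1, 40.6 and 16.5 FPKM in the libraries labelled knockout against 216, 20.8 and 41.4 FPKM in the control libraries, with control library 1 apart from the rest. None of the adipocyte and macrophage markers was at 0, and the part of these lists in the enzyme values was not tested. In bulk tissue, fewer cells of a type and less RNA per cell cannot be told apart. Skeletal muscle transcripts were low: the sum of 25 muscle markers was 53.8, 61.1 and 54.6 FPKM in the libraries labelled knockout and 38.4, 30.1 and 29.5 FPKM in the control libraries. Of the 7 muscle markers tested, 3 rose (Myl1, Pvalb and Casq1). With the mean of the muscle list as a covariate 1 of the 10 enzymes passed. The muscle sums did not overlap between the groups, so this covariate may follow the group labels. The fit cannot separate muscle level from label.

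**Figure D2:**
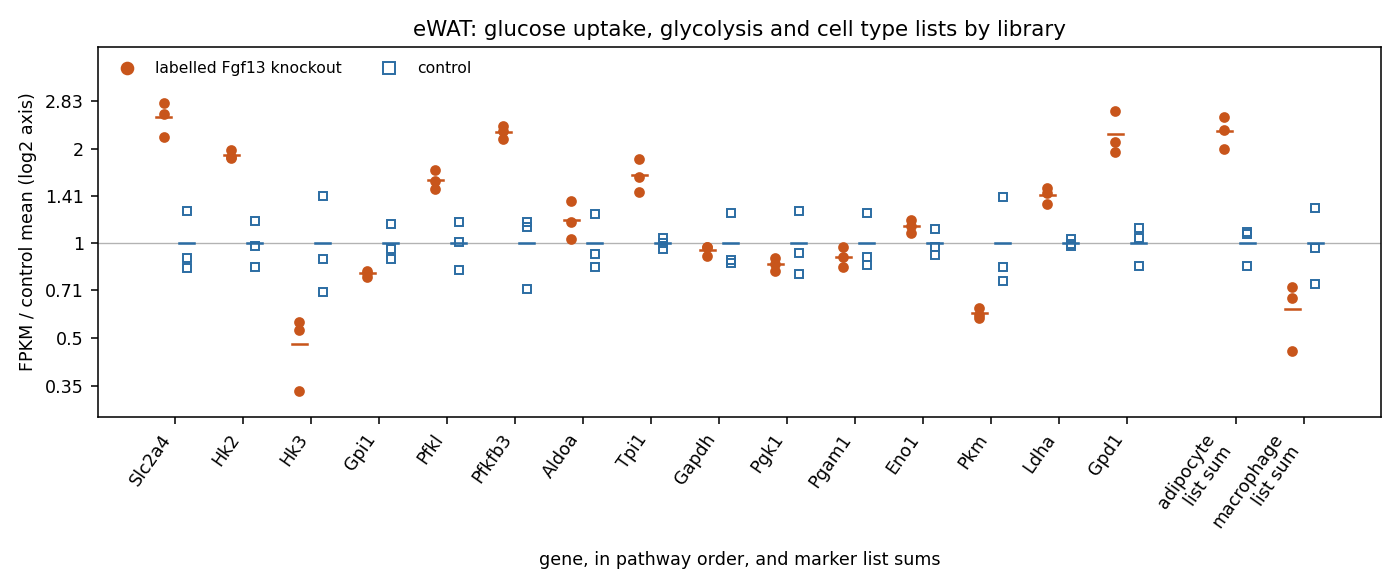
FPKM of genes of glucose uptake and glycolysis in eWAT divided by the control mean (log2 axis), in pathway order, with summed adipocyte and macrophage markers at the right. Circles are libraries labelled knockout, squares control libraries and bars group means: Slc2a4, Hk2, Pfkl, Pfkfb3, Tpi1, Ldha, Gpd1 and the adipocyte sum lie above the control points, and Gpi1, Pkm, Hk3 and the macrophage sum lie below them.

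Glycolytic genes are textbook targets of the hypoxia-inducible factor HIF-1, whose DNA sites include the core ACGTG. No other form of the core was searched for. Of 18 other HIF-1 target genes, all tested in eWAT, 3 rose and 0 fell, beside 10.2% and 4.7% of all genes, with a median change of -0.01. The libraries labelled knockout lay fully above control for 4 and fully below for 6 (Kdm3a, P4ha1, Car9, Ankrd37, Slc2a1 and Pdk1), and those 6 did not pass. Of all genes tested, 21.6% lay fully above and 19.6% fully below control. The 3 that rose were Bnip3, a mitophagy receptor (log2 change 1.19, SE 0.17, adjusted p = 0.0128 by limma), Vegfa, the vascular growth factor (log2 change 0.86, SE 0.13, adjusted p = 0.0133), and Higd1a, a mitochondrial protein (log2 change 0.69, SE 0.12, adjusted p = 0.0163). Of 8 pentose phosphate genes, which branch off after the hexokinase step, 2 rose (Rpe and H6pd, log2 changes 0.46 and 0.32) and 0 fell, beside the same shares of all genes, with a median of 0.11.

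The promoters of the 3 enzymes that rose in eWAT and of the 2 that lay below control are shown for comparison of this core. They are RefSeq windows of 250 bases before the start, build GRCm38.p6, in lower case 5′ to 3′ on the gene's strand, with ACGTG or its reverse complement CACGT in capitals. Ldha (first start) lies at chr7:46845554-46845803 on the plus strand, Pfkl at chr10:78009808-78010057 on the minus strand, Tpi1 at chr6:124814159-124814408 on the minus strand, Gpi1 at chr7:34230337-34230586 on the minus strand and Pkm (first start) at chr9:59656326-59656575 on the plus strand.
Ldha: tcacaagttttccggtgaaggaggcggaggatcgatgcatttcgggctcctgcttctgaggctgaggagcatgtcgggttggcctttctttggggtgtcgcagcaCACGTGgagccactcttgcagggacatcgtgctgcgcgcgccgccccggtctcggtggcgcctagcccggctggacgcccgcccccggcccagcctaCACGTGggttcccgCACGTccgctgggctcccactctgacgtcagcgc
Pfkl: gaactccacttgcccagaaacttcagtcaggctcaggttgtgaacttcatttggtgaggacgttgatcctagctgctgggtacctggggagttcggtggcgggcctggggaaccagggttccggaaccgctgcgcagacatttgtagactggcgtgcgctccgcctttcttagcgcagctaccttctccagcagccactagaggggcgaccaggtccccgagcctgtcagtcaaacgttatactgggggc
Tpi1: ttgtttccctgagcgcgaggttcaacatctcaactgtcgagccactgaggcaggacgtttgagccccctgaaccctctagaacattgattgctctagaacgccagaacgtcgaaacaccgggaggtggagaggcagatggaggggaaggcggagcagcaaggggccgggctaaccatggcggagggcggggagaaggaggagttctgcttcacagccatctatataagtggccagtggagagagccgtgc
Gpi1: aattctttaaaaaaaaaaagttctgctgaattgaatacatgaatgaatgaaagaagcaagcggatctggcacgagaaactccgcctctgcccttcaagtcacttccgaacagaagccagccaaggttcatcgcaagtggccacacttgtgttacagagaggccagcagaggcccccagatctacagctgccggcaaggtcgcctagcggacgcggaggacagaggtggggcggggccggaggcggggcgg
Pkm: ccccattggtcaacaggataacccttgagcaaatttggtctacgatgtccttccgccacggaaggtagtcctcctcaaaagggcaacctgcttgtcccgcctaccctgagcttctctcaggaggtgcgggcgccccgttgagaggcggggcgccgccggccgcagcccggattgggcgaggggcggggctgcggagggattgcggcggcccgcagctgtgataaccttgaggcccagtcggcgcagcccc
The Ldha window holds the core at 3 places, and 0.244% of all windows hold it at 3 or more. The bases after this first start were not found in a GENCODE transcript, while those after the second Ldha start were, and the window before that second start holds none. Pfkl, Tpi1, Gpi1 and the first Pkm window hold no ACGTG on either strand. Over the 10 enzymes, 8 of 19 windows and 6 of 10 genes (Pfkm, Aldoa, Pgk1, Pgam1, Pkm and Ldha) hold the core on either strand, against 16.6% of 32851 windows and 18.5% of 27025 genes. The longer CACGTG, which contains the core, occurs in 2 of the 10 genes (Ldha and Pfkm) and in 6.86% of all genes. Among the 3 enzymes that rose, 1 holds ACGTG, and a match describes letters only.

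In BAT, 9 of the 10 enzymes were higher in knockout on average, and 0 of the 10 passed the adjusted test by limma, beside 0.00755% of all genes higher and 0% lower. Of the 10, 4 (Pgk1, Eno1, Pkm and Ldha) had every knockout library above every control library, a pattern found in 6.37% of all genes tested. The median log2 change of the enzymes was 0.31, beside -0.18 over all genes, 23.6% of which were above 0. With median-ratio scaling the all-gene median was 0.00 and the enzyme median 0.52. Eno1 had 3525 and 2770.3 CPM in the knockout libraries, against 2384, 1831 and 1581 CPM in the control libraries. Both knockout libraries were the highest, with a log2 change of 0.71, an SE of 0.21, a 95% interval of 0.22 to 1.21 and an adjusted p of 0.237 by limma, and the change was 0.90 relative to the all-gene median. DESeq2 on the recovered reads gave an adjusted p of 0.00896 for Eno1, and the alternatives ran from 0.00896 to 0.563.

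Ldha in BAT had 1386 and 1447 CPM in the knockout libraries, against 1221, 1036 and 1081 CPM in the control libraries (log2 change 0.35, SE 0.12, adjusted p = 0.24 by limma). DESeq2 gave an adjusted p of 0.00209 for Ldha, and the alternatives ran from 0.00209 to 0.563. Pkm had 2339 and 1943 CPM in the knockout libraries, against 1839, 1643 and 1390.5 CPM in the control libraries (log2 change 0.40, SE 0.16, adjusted p = 0.256), and Pgk1 had 804 and 761 CPM in the knockout libraries, against 608, 718 and 616 CPM in the control libraries (log2 change 0.28, SE 0.12, adjusted p = 0.273). For these 3 enzymes the lowest knockout library was above the highest control library. At an unadjusted p under 0.05, 3 of the 10 enzymes were higher, against 2.32% of all genes, and 0 were lower, against 16.8%, while edgeR passed 0 and DESeq2 2 of the 10 after adjustment.

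The remaining enzymes of BAT overlapped. Pfkm had 71.99 and 207 CPM in the knockout libraries, against 58.9, 88.5 and 56.8 CPM in the control libraries, and knockout library 2 alone was high. Its log2 change of 0.86 (SE 0.52, adjusted p = 0.386 by limma) was 0.11 without that library and 1.62 without knockout library 1. Aldoa had 3979 and 3394 CPM in the knockout libraries, against 3488, 2598 and 2397 CPM in the control libraries. Pfkl had 964 and 813 CPM in the knockout libraries, against 738, 840.0 and 653 CPM in the control libraries, and Gpi1 had 822 and 669.7 CPM in the knockout libraries, against 778, 591 and 565 CPM in the control libraries. In each of these, control library 1 or 2 reached into the knockout range. Pgam1 had 845 and 726 CPM in the knockout libraries, against 741, 787 and 686 CPM in the control libraries. Tpi1 had 495 and 579 CPM in the knockout libraries, against 527, 538 and 615 CPM in the control libraries, with a log2 change of -0.06 that became 0.14 with median-ratio scaling and 0.15 with edgeR and DESeq2.

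Other genes of glucose use lay on either side of control in BAT, and those named here did not pass the test. Hk2 had 313 and 299.6 CPM in the knockout libraries, against 238, 205 and 153 CPM in the control libraries (log2 change 0.65, SE 0.19, adjusted p = 0.237 by limma), and Gapdh had 3354 and 2988 CPM in the knockout libraries, against 2859, 1979.6 and 1888 CPM in the control libraries (log2 change 0.52, SE 0.20, adjusted p = 0.25). Of the 31 further pathway genes, 24 were tested, and 0 passed after adjustment. Their knockout libraries lay fully above control for 8 and fully below for 3, beside 6.37% and 38.1% of all genes, and their median change was 0.22. Hk2 was 76.6% and 80.3% of the hexokinase signal in the knockout libraries, against 61.5%, 65.6% and 49.5% in the control libraries. Macrophage markers were lower in both knockout libraries for 9 of 9 genes, with sums of 63.5 and 63.6 CPM in the knockout against 464, 162 and 818 CPM in the control libraries. Fibroblast and progenitor markers summed to 320.3 and 479 CPM in the knockout against 1061, 549 and 1819.9 CPM in the control libraries. None of these sums was tested for a part in the enzyme values.

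Skeletal muscle RNA was uneven in BAT. All 25 muscle markers were highest in knockout library 2, and their sums were 53.7 and 9499.6 CPM in the knockout against 698, 1978 and 61.5 CPM in the control libraries. Acta1, skeletal actin, had 0.431 and 1707 CPM in the knockout libraries, against 125, 337 and 4.51 CPM in the control libraries. Ckm, muscle creatine kinase, had 0 and 782 CPM in the knockout libraries, against 56.95, 159 and 0.105 CPM in the control libraries. Eno3, the muscle enolase, had 4.31 and 221 CPM in the knockout libraries, against 21.6, 44.6 and 4.98 CPM in the control libraries, and Pgam2, the muscle mutase, had 0.0615 and 80.1 CPM in the knockout libraries, against 5.55, 17.3 and 0 CPM in the control libraries. Acta1, Ckm and Eno3 were at their lowest in knockout library 1, in which Gpi1, Pfkl, Aldoa, Pgk1, Pgam1, Eno1 and Pkm had their highest values in the set. Pfkl held 82.9% and 68.7% of the phosphofructokinase signal in the knockout libraries, against 80.5%, 79.6% and 78.7% in the control libraries.

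In sWAT, Pfkm was the 1 enzyme of the 10 whose knockout libraries all lay above the control libraries, beside 3.8% of all genes tested, and 0 of the 10 lay below control, beside 12.3%. By limma, 0 of the 10 passed after adjustment, beside 0.0217% of all genes higher and 0% lower, and at an unadjusted p under 0.05 Pfkm was the 1 enzyme higher, beside 1.93%, and 0 were lower, beside 7.72%. Pfkm had 29.5, 57.9 and 61.6 CPM in the knockout libraries, against 24.1, 22.98 and 23.6 CPM in the control libraries. Knockout libraries 2 and 3 were far above the rest, and knockout library 1 was nearer to control. The means were 49.7 ± 17.5 CPM in the knockout libraries and 23.6 ± 0.542 CPM in the control libraries (SD, n = 3 each; log2 change 0.98, SE 0.27, adjusted p = 0.447 by limma). Leaving out knockout library 1 gave 1.31 with an adjusted p of 0.000208, and DESeq2 gave 1.13 with 0.00494. Leaving out both libraries rich in muscle RNA leaves 1 knockout library, assumed to vary like the controls, and gave 0.32 with 0.177, and over all alternatives the adjusted p ran from 0.000208 to 0.850. Pfkm made up 12.9%, 22.6% and 24.2% of the phosphofructokinase signal per kilobase in the knockout libraries, against 10.6%, 10.3% and 11.8% in the control libraries.

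The same knockout libraries 2 and 3 carried muscle transcripts in sWAT, where 19 of 25 muscle markers were highest in both. The muscle sums were 64.8, 3003 and 3979 CPM in the knockout against 77.7, 71.7 and 62.7 CPM in the control libraries. Acta1 had 18.1, 479 and 536 CPM in the knockout libraries, against 25.7, 20.3 and 13.8 CPM in the control libraries, and Ckm had 0, 341 and 408 CPM in the knockout libraries, against 0, 0.0741 and 0 CPM in the control libraries. Eno3 had 5.63, 96.8 and 97.9 CPM in the knockout libraries, against 5.27, 4.37 and 8.08 CPM in the control libraries, and Pgam2 had 0, 23.3 and 24.5 CPM in the knockout libraries, against 0.0471, 0 and 0.0612 CPM in the control libraries. Each was high in knockout libraries 2 and 3 and at the control level in knockout library 1. In that library, Pfkm at 29.5 CPM was still above the highest control value of 24.1 CPM. Aldoa, which is also abundant in muscle, had 1475, 2013 and 2376 CPM in the knockout libraries, against 1816, 1737 and 1581 CPM in the control libraries. Its log2 change was 0.17, and -0.21 without both muscle-rich libraries or with the muscle level as a covariate.

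**Figure D3:**
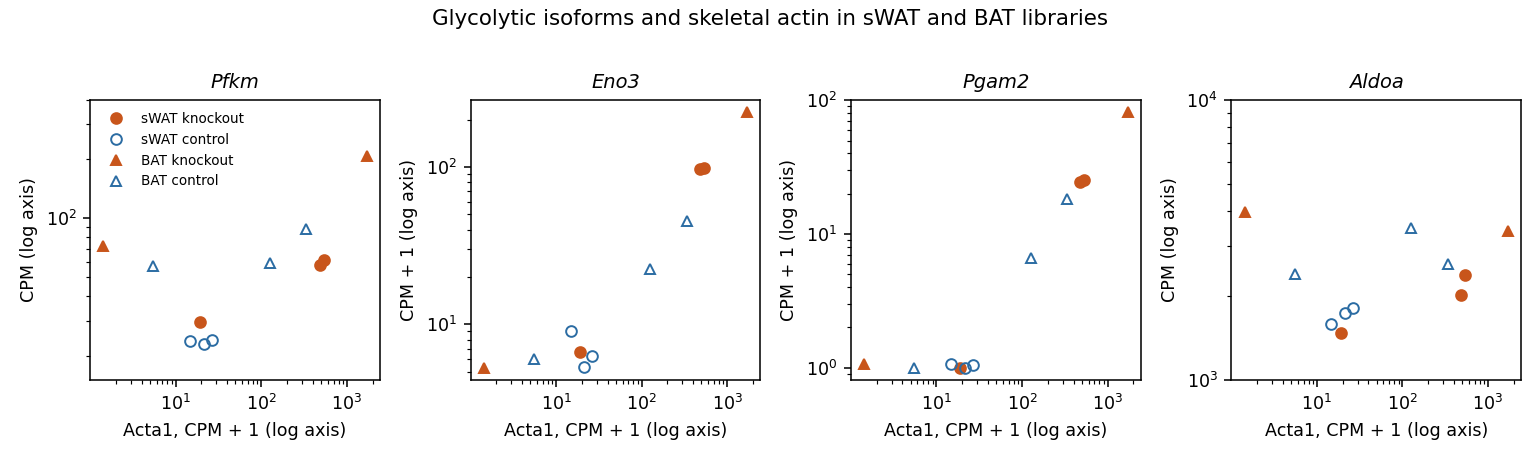
Pfkm, Eno3, Pgam2 and Aldoa (CPM, log axis) against Acta1 (CPM + 1, log axis), with 1 point per library of sWAT (circles) and BAT (triangles), filled for knockout and open for control. The knockout libraries with Acta1 at 479, 536 and 1707 CPM are the highest of their set for Pfkm, Eno3 and Pgam2, and Aldoa does not follow that order in BAT.

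The other 8 enzymes of sWAT overlapped between the groups. Tpi1 had 804, 810.2 and 954 CPM in the knockout libraries, against 819, 705 and 671 CPM in the control libraries (log2 change 0.23, SE 0.11, adjusted p = 0.547 by limma), and Gpi1 had 273, 304 and 283 CPM in the knockout libraries, against 322, 319.8 and 300.1 CPM in the control libraries (log2 change -0.13, SE 0.08, adjusted p = 0.585). Ldha had 1028, 1119 and 1114 CPM in the knockout libraries, against 1018, 1055 and 994 CPM in the control libraries. The changes of Pfkl, Pgk1, Pgam1 and Eno1 were 0.02, 0.04, 0.00 and -0.04. Pkm had 379, 542 and 485 CPM in the knockout libraries, against 525, 496 and 479 CPM in the control libraries, with knockout library 1 the lowest. That library was also the lowest in macrophage markers, whose sums were 674, 1517 and 1097 CPM in the knockout against 1712, 1680.5 and 1514 CPM in the control libraries, and their part in the Pkm value was not tested. Of the 10 enzymes 7 were above 0, beside 37.2% of all genes, and their median change was 0.03, beside -0.05 over all genes. That median was -0.13 without both muscle-rich libraries and 0.11 without knockout library 1.

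In isWAT, 0 of the 10 enzymes passed the test by limma, beside 0.00701% of all genes higher and 0% lower, and 0 by edgeR or DESeq2. At an unadjusted p under 0.05, 0 of the 10 were higher or lower, beside 3.98% and 9.13% of all genes. Ldha had 1032 and 1060.1 CPM in the knockout libraries, against 981, 961 and 939 CPM in the control libraries (log2 change 0.12, SE 0.08, adjusted p = 0.52 by limma), and Pkm had 578 and 575 CPM in the knockout libraries, against 533, 540.0 and 554 CPM in the control libraries (log2 change 0.09, SE 0.08, adjusted p = 0.633). Both knockout libraries were above all control libraries for these 2 of 10 enzymes, beside 12.2% of all genes. Pfkm had 31.2 and 30.8 CPM in the knockout libraries, against 32.8, 36.1 and 31.7 CPM in the control libraries (log2 change -0.11, SE 0.09, adjusted p = 0.621), the 1 enzyme with both knockout libraries below control, beside 19.4% of all genes. The other 7 enzymes overlapped, and Pgk1 had 239 and 204 CPM in the knockout libraries, against 199, 196 and 204 CPM in the control libraries. Its change of 0.14 (SE 0.09) was 0.03 without knockout library 1 and 0.26 without knockout library 2. The 95% intervals of the 10 changes lay between -0.32 and 0.36. With 8 of 10 above 0, beside 43.9% of all genes, the median change was 0.07, beside -0.03 over all genes. Upstream, Hk2 had 103 and 125 CPM in the knockout libraries, against 155, 135 and 162 CPM in the control libraries (log2 change -0.41, SE 0.12, adjusted p = 0.314), and the groups did not overlap. Acta1 had 25.5 and 22.2 CPM in the knockout libraries, against 23.4, 16.3 and 17.7 CPM in the control libraries.

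In ieWAT all 10 enzymes overlapped between knockout and control, where 3.43% of all genes lay fully above and 1.68% fully below control, and each had an adjusted p of 1.00 by limma. At an unadjusted p under 0.05, 0 of the 10 were higher or lower, beside 2% and 0.617% of all genes, and edgeR and DESeq2 also passed 0 of the 10. Pfkm had the widest spread, with 23.5, 30.2 and 18.9 CPM in the knockout libraries, against 21.8, 25.8 and 31.3 CPM in the control libraries (log2 change -0.12, SE 0.20). Ldha had 819, 827 and 761 CPM in the knockout libraries, against 806, 888 and 897 CPM in the control libraries (log2 change -0.10, SE 0.12). Tpi1 and Pfkl, which rose in eWAT, overlapped in this other epididymal set. Tpi1 had 678, 684 and 544 CPM in the knockout libraries, against 589, 659.7 and 696 CPM in the control libraries, and Pfkl had 159, 195 and 132 CPM in the knockout libraries, against 155, 176 and 170.3 CPM in the control libraries. Pkm had 857, 698 and 863 CPM in the knockout libraries, against 716, 876 and 833 CPM in the control libraries. The 95% intervals of the 10 changes lay between -0.59 and 0.34, and the median was -0.04, beside 0.02 over all genes. Of the 10, 0 were above 0, beside 55.8% of all genes, but 5 were above 0 without control library 3 or without knockout library 3. Acta1 had 18.03, 22.1 and 13.4 CPM in the knockout libraries, against 16.6, 16.03 and 12.5 CPM in the control libraries, with no library apart.

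Control library 3 of ieWAT held sperm forms of glycolytic enzymes, which were looked at after their values were seen. Ldhc, the germ cell lactate dehydrogenase, reached 120.02 CPM there and at most 3.49 CPM in the other 5 libraries. Gapdhs, the sperm glyceraldehyde phosphate dehydrogenase, reached 98.6 CPM against at most 2.60 CPM, and Pgk2, the sperm phosphoglycerate kinase, 32.2 CPM against at most 0.969 CPM. Pgam2, the mutase that was also high in the muscle-rich libraries, reached 43.3 CPM against at most 0.944 CPM. The testis aldolase Aldoart2 reached 20.0 CPM against at most 0.281 CPM. Protamines, which pack sperm DNA, were high in the same library, with Prm1 at 158 CPM against at most 4.44 CPM. In control library 3, Ldhc took 14.0% of the lactate dehydrogenase and Pgam2 23.9% of the mutase signal per kilobase. Hk1, which is no germ cell form by its level of 57.5 to 78.4 CPM in the other libraries, had 168 CPM there. It held 45.6% of the hexokinase signal, against 26.0% to 28.5% in the other libraries. Of the 10 enzymes, Gpi1, Pfkm, Tpi1, Pgam1 and Ldha were highest in that library and Pgk1 lowest. Without control library 3 the median change of the 10 was -0.01 and 0 passed.

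**Figure D4:**
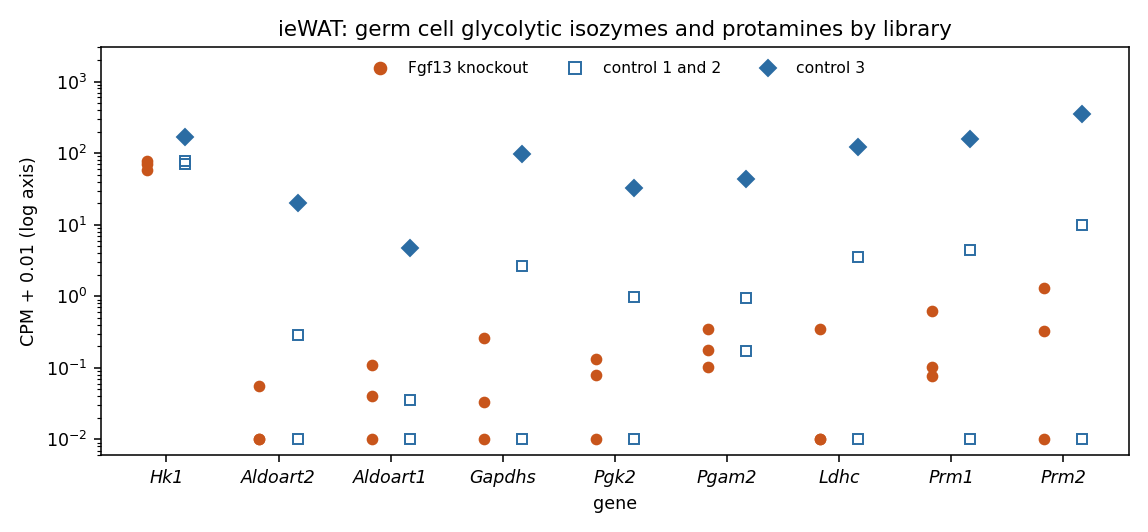
CPM + 0.01 (log axis) of Hk1, germ cell isozymes and protamines in each ieWAT library, with knockout libraries as circles, control libraries 1 and 2 as open squares and control library 3 as a diamond. The diamond is the highest point for each gene, with Ldhc at 120.02 CPM and Prm2 at 353 CPM.

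**Figure D5:**
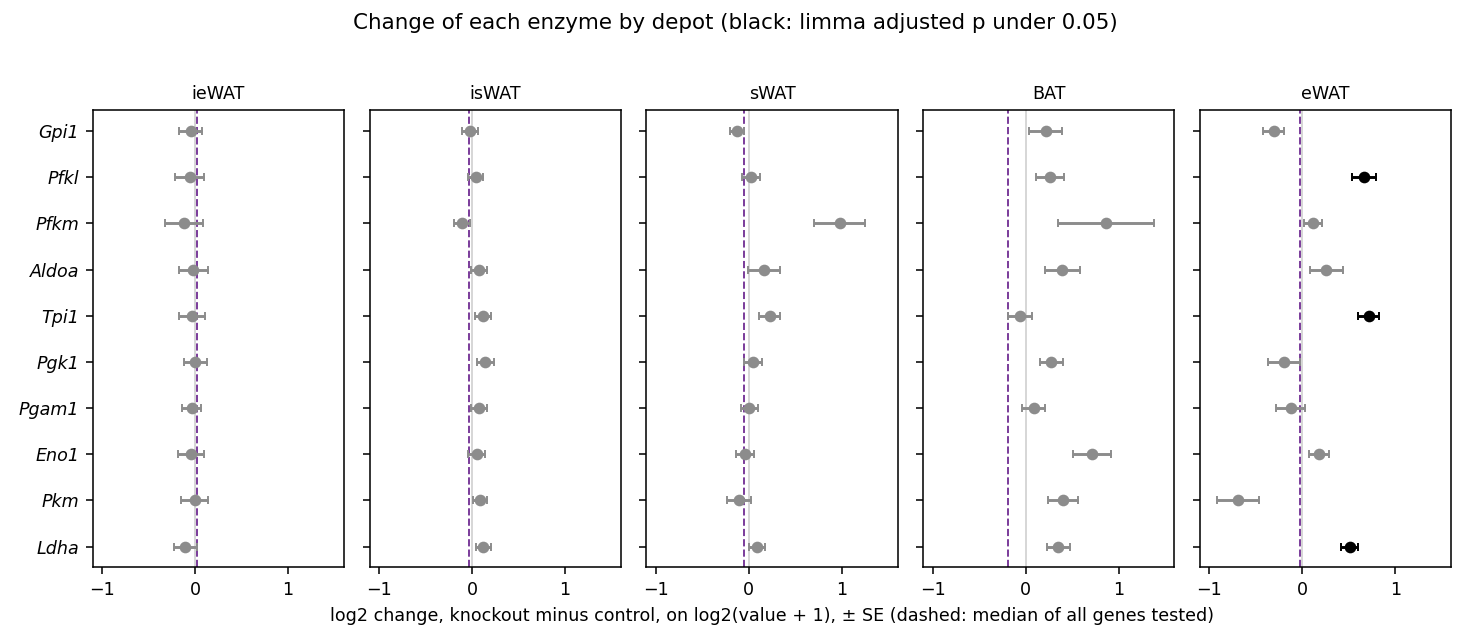
Log2 change of each enzyme, as knockout minus control with its SE after log2(value + 1), in each data set; black points passed the adjusted test and dashed lines are the medians of all genes tested. Black points are Pfkl, Tpi1 and Ldha in eWAT, and the BAT points lie to the right of the all-gene median of -0.18.

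Over the 28 libraries, after centring each data set, the enzymes varied together to different degrees. The correlation of an enzyme with the mean of the other 9 was 0.86 for Aldoa, 0.74 for Eno1 and 0.61 for Ldha, and 0.27 for Gpi1, 0.21 for Pkm and 0.19 for Tpi1. Without BAT it was 0.92 for Aldoa, 0.70 for Eno1, 0.48 for Ldha, 0.03 for Gpi1, -0.03 for Pkm and 0.41 for Tpi1. Among 12139 genes that are no members, the 5 with the pattern most like the enzyme mean were Gapdh (r = 0.83), the transketolase Tkt (0.76), the kinase Cdk5 (0.75) and the respiratory chain subunits Cox7c (0.76) and Ndufb2 (0.73). Without BAT, over 23 libraries, r was 0.79 for Gapdh, 0.59 for Tkt, 0.78 for Cdk5, 0.73 for Cox7c and 0.77 for Ndufb2. The points share their library's total, so these are descriptions only.

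Most of these enzymes share sequence with other genes, such as their copies in the genome, and reads may be split between them. Of the 31-base words of each enzyme's transcripts, 68.3% for Pgk1, 53.5% for Eno1, 42.1% for Pgam1, 33.9% for Pkm, 28.5% for Gpi1, 21.9% for Aldoa, 21.6% for Ldha, 13.6% for Tpi1, 9.35% for Pfkm and 0% for Pfkl occur in such a copy. A copy is any other gene that holds at least 2% of the enzyme's words. Genes that share fewer words were left out. For Pgk1, the copies held at most 15.8% of the summed signal of the enzyme and its copies in eWAT. That share was at most 8.93% in ieWAT, 3.15% to 6.24% in isWAT, and 0% in sWAT and BAT. For Pgam1 it was at most 5.30% in eWAT.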

How the data were processed

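Gene tables of 28 bulk RNA-seq libraries were used as the authors deposited them, 1 table per fat data set. Salmon, FastQC, MultiQC and DESeq2 1.38.3 are named in the submitters' processing notes, while aligner, genome build and annotation are not stated in the sources used. The 5 tables are named as FPKM. The deposited ieWAT, isWAT, sWAT and BAT values are CPM: columns sum to the same total, and 100% of values above 0 per library were whole multiples of 1 read within 0.01 reads, except 99.991% in knockout library 2 of isWAT and 99.995% in knockout library 1 of BAT, so whole reads could be recovered. The deposited eWAT values are FPKM, scaled by the authors to length and depth. Their median-ratio size factors were 1 in every library, so the median-ratio alternative repeats the main fit in eWAT. Of 7 deposited tables, 2 were not used, nor was a column of text notes. Gene symbols came from GENCODE M21 and covered 92.0% of identifiers (96.0% in ieWAT).

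Each set was fitted alone with limma 3.58.1 (lmFit, eBayes with trend and robust, two-sided) in R 4.3.3 on log2(value + 1), over genes that reached 1 in at least as many libraries as the smaller group holds. A fold change on this scale understates changes of low genes. Since the tables used hold no raw counts, edgeR 4.0.16 and DESeq2 1.42.0 on the recovered reads of the CPM tables were alternatives. The main limma fit, edgeR and DESeq2 were tested on simulated data, and the other steps were not. The simulated data held no library rich in muscle or germ cell transcripts. Tables were summarised in Python 3.11.15. Intervals are 95%. Shares of a step divide CPM by the length of the principal transcript, or use FPKM.

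Genes named are the 10 enzymes, Fgf13, Acta1, Ckm, members of 3 related pathway lists that passed the test, isozymes of the same steps, Hk2, Gapdh and the 5 genes most like the enzyme mean, while the pathway genes below control in eWAT, the muscle and endothelial markers that rose there, Aldoart2 and the protamines were named after their values were seen. The members and lists were chosen with earlier results of these data known.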

Additional observations from a re-analysis of the deposited data

Results flagged for a closer look

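For a pair of enzymes every knockout library lay on one side of control in 1 set and on the other side in another set, and the difference between the sets was not tested. Pfkm lay above control in sWAT and below it in isWAT, and its log2 changes differed by 1.08. The sWAT libraries with the most Pfkm, knockout libraries 2 and 3, were those rich in muscle transcripts. Pkm lay above control in isWAT and below it in eWAT, where its changes differed by 0.78, and above control in BAT against below in eWAT, where they differed by 1.09. Of all genes tested, 3.8% lay fully above control in sWAT, 12.2% in isWAT and 6.37% in BAT. Fully below control were 19.4% in isWAT and 19.6% in eWAT. How many of all genes lay on opposite sides in such sets was not counted. With 2 or 3 libraries a group, no library could be tested as an outlier within its group.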

How the results depend on the processing

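Of 670 single-enzyme values under the alternatives, 15 lost the threshold, all in eWAT, and 4 gained it (2 in sWAT and 2 in BAT). Only Pfkl, Tpi1 and Ldha in eWAT passed in the main fit, with 12 alternatives each. No other values could lose the threshold, so the 15 are to be read against these alone. A further 13 values changed sign by more than 1 SE without passing in either setting, and 0 of those passing changed sign. Genes passing in eWAT numbered 2041, against 544 without the filter on low values, 773 with the muscle list as a covariate (1 enzyme passing) and 12 to 1819 without 1 library (0 to 3 enzymes). In ieWAT 0 genes passed, 0 to 1 without 1 library and 32 with DESeq2. In isWAT 1 passed, 3 without the filter, 0 without the trend and robust options, 0 with the covariate, 0 to 12 without 1 library and 259 with DESeq2, and the enzyme median without 1 library ran from 0.0345 to 0.0979. In sWAT 3 passed, 5 with a pseudocount of 0.1 and 5 without the filter, 157 with the covariate (enzyme median -0.12), 681 without both muscle-rich knockout libraries, which leaves 1 knockout library (median -0.13), 1 to 120 without 1 library (0 to 1 enzymes, Pfkm) and 52 with DESeq2 (1 enzyme). In BAT 1 passed, 0 with a pseudocount of 0.1, 7 without the filter, 0 without the trend and robust options, 0 with the covariate, 0 with edgeR, 791 with DESeq2 (2 enzymes) and 0 to 2201 without 1 library, the highest without control library 2. The BAT enzyme median was 0.52 with median-ratio scaling and 0.51 with edgeR and DESeq2. Causes of these shifts were not tested.

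Whether the replicate numbers pair the samples could not be told. Same-numbered libraries deviated together in some pairs and apart in others. In groups this small the deviations are tied to each other, so their correlations cannot decide it. With the number as a replicate block, the genes passing were 1 (ieWAT), 7 (isWAT), 1 (sWAT), 0 (BAT) and 0 (eWAT, with 0 enzymes). The depth of eWAT is unknown.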
